A study of Homo sapiens with 8 samples.

Results

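RNA immunoprecipitation and sequencing (RIP-seq) of METTL3, the enzyme that writes N6-methyladenosine (m6A) on RNA, was examined on the transcripts of 7 genes of the histone modifying machinery. These are the lysine methyltransferase genes KMT2A, KMT2B, KMT2C, KMT2D and KMT2E and the acetyltransferase genes EP300 and CREBBP. The members described are all peaks that lay whole within the RefSeq span of one of these genes on GRCh38. There were 40 such peaks among 3649 in all, of which LNCaP contributed 16 of its 2616 and PC3 24 of its 1033. The genes were chosen by their function with the peaks and folds of these lists already known, so the number, place and fold of their peaks are given as a description, without a test.

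The samples were METTL3 IP and input libraries of the human prostate cancer cell lines LNCaP (labelled LNCAP) and PC3, with 2 replicates in each of the 4 groups. Neither line carried a treatment or an engineered allele per the labels, and the collected cells were frozen before lysis. LNCaP was grown in 20% and PC3 in 10% fetal bovine serum, so line and serum cannot be told apart. Both lines were established from metastases, and growth responds to androgen in LNCaP but not in PC3. The IgG control that the labels' protocols mention is not analysed here. The deposited result is 1 list of peaks per line with a fold and a p-value for each peak, which are the authors' values throughout. No value per library and no depth is known, so no error between replicates can be given, and how many of the peaks would recur in both replicates was not tested. The header does not name the denominator of the fold, and its reading as IP over input rests on the design.

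KMT2 enzymes methylate lysine 4 of histone H3. KMT2A and KMT2B act in complexes with menin, mainly at promoters and developmental genes, while KMT2C and KMT2D act with the demethylase KDM6A at enhancers. KMT2E is the divergent member, for which such activity is not established. EP300 and CREBBP are paralogous acetyltransferases that acetylate histone tails at enhancers and serve as coactivators of many transcription factors. METTL3 methylates adenosines in messenger RNA with its partner METTL14, most often in long internal exons and around stop codons, and a RIP peak marks where recovered RNA was enriched, not a methylated base.

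All 7 genes carried a peak in at least 1 list. KMT2B, KMT2D and KMT2E had peaks in both lists, as did 1.16% of 19974 protein-coding genes. KMT2A and KMT2C had them in the LNCaP list alone (4.46% of these genes), and EP300 and CREBBP in the PC3 list alone (0.671%). Thus 5 of 7 genes had a peak in each list, where 5.62% of the protein-coding genes had one in LNCaP and 1.83% in PC3. Among the 10019 genes with a span as long as the shortest to the longest of the 7 (20876 to 301079 bp), the shares were 8.02% and 3%. By family, the KMT2 genes held all 16 LNCaP peaks and 10 of the 24 PC3 peaks, and the acetyltransferase genes held the other 14 PC3 peaks and 0 LNCaP peaks.

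All 16 LNCaP and all 24 PC3 peaks lay on the strand of their gene, where 96.5% and 96.6% of all peaks within a protein-coding gene of known strand did so. None of the 40 met another annotated gene. Genomic span, which includes introns, ran from 51 to 4947 bp in LNCaP (median 201 bp) and from 51 to 10312 bp in PC3 (median 538.5 bp), against medians of 924.5 and 922 bp over the lists. Spans of at most 200 bp made up 7 of the 16 and 10 of the 24 peaks, and 32.7% and 29.4% of the lists. Whether a peak lies in an exon, an intron or a UTR is not given, because the gene table used here has gene spans only.

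**Figure D1:**
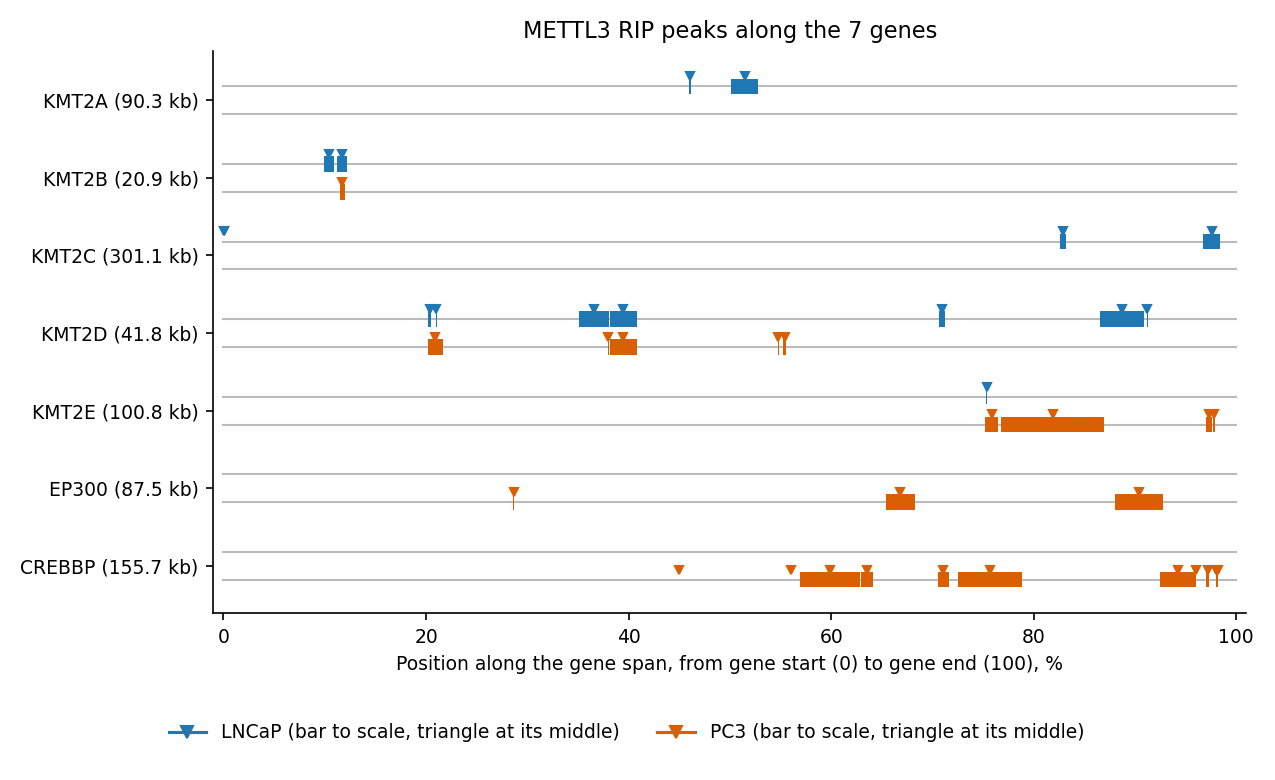
Peaks of the LNCaP list (blue, upper line of each pair) and the PC3 list (orange, lower line) along the 7 genes, from gene start (0) to gene end (100) in percent of the gene span in the direction of transcription; bars are to scale and a triangle marks the middle of each peak. CREBBP and EP300 carry peaks on the PC3 line alone, and KMT2A and KMT2C on the LNCaP line alone. Some neighbouring peaks, such as the 2 at the start of KMT2C, lie too close together to be told apart.

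KMT2A (chromosome 11, 118436492 to 118526832, plus strand) encodes the founding mammalian member of the family, known for its rearrangement in leukaemia. It had 2 LNCaP peaks, both near the middle of its 90341 bp span. The longer, at 118481735 to 118484201 (2467 bp), had a fold of 10.7 and a p of 5.4e-06. The shorter, at 118478013 to 118478188 (176 bp), had a fold of 7.14 and a p of 0.00127. The PC3 list held no KMT2A peak. The largest p listed there was 1.59e-05, which lies between those of the 2 LNCaP peaks.

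KMT2B (chromosome 19, 35718003 to 35738878, plus strand), the closest relative of KMT2A, is the shortest of the 7 genes with a span of 20876 bp. Its peaks lay 10.4% to 11.7% of the way along the gene in both lines. The LNCaP list had a pair of 201 bp peaks with 74 bases between them, at 35720072 to 35720272 with a fold of 12.1 (a listed p of 3.24e-05) and at 35720347 to 35720547 with a fold of 13.9 (a listed p of 1.14e-05). The single PC3 peak, at 35720397 to 35720497 (101 bp), had a fold of 8.34 (a listed p of 4.75e-06) and lay whole within the second LNCaP peak.

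KMT2C (chromosome 7, 152134925 to 152436003, minus strand) encodes an enhancer methyltransferase and has the longest span of the 7, 301079 bp. Its 4 LNCaP peaks lay at opposite ends of the gene. A pair of 76 bp peaks began 127 and 227 bp after the gene start, at 152435801 to 152435876 with a fold of 6.67 and at 152435701 to 152435776 with a fold of 5.59. The largest fold of the gene, 17.6, was on the 4947 bp peak at 152139767 to 152144713, which ended 4842 bp before the gene end. The fourth peak, at 152185557 to 152187262, had a fold of 5.996. All 4 p-values lay between 0.00241 and 0.0045, above the largest p listed for PC3, 1.59e-05. Parts of KMT2C have near-identical copies elsewhere in the genome, and how shared reads were placed is not stated. Whether any of the 4 peaks lies in such a part was not examined, and any that does is uncertain.

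KMT2D (chromosome 12, 49018978 to 49060794, minus strand), the paralog of KMT2C and a gene recurrently mutated in prostate cancer, had more LNCaP peaks than any other of the 7 genes and, in both lists, the most peaks per length of gene. Its 41817 bp span held 7 LNCaP peaks, or 16.7 per 100 kb, and 5 PC3 peaks, or 12.0 per 100 kb. In LNCaP 44 protein-coding genes had more peaks as listed, and in PC3 41 did. With stretches within 25 bp joined, KMT2D had 7 LNCaP and 4 PC3 peaks. The peaks covered 11.1% of the gene span in LNCaP and 4.75% in PC3.

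One KMT2D peak had identical bounds in both lists. It spanned 1106 bp at 49043733 to 49044838. The LNCaP fold was 11.4 with a p of 8.13e-08 and the PC3 fold 9.52 with a p of 9.74e-16, the smallest KMT2D p in each list. A neighbouring LNCaP peak at 49044888 to 49046114, with a fold of 18.9, shared 51 bp with a 76 bp PC3 peak whose fold was 6.54. Nearer the gene start, the 626 bp PC3 peak at 49051739 to 49052364, with a fold of 9.72, held whole both of a pair of short LNCaP peaks with folds of 4.33 and 3.98. The lists thus met in the same 2 stretches of the gene.

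Outside these stretches the KMT2D peaks differed between the lists. The LNCaP list alone had 3 peaks towards the gene end, with folds of 22.8 at 49022782 to 49024611, 3.87 at 49022607 to 49022682 and 7.50 at 49030995 to 49031236. Their p-values, 0.000201, 0.00998 and 0.00181, were all above the largest PC3 p. The PC3 list alone had 2 peaks in the middle of the gene, of 126 bp at 49037562 to 49037687 and of 51 bp at 49037862 to 49037912, with folds of 139.4 and 120.2. The nearest LNCaP peak was 5820 bases or more away from either.

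KMT2E (chromosome 7, 105014205 to 105115019, plus strand) has a span of 100815 bp, and all its peaks in both lines lay between 75.3% and 97.8% of the way along it. A 101 bp LNCaP peak at 105090113 to 105090213, with a fold of 4.23 (a listed p of 0.00251), was its only one in that list. The 1318 bp PC3 peak at 105090013 to 105091330 held it whole, with a fold of 4.45 (a listed p of 1.64e-14). The other 3 PC3 peaks lay further on. A 10312 bp peak from 105091580 to 105101891 had a fold of 5.07, and a pair at 105112019 to 105112644 and 105112669 to 105112944, with folds of 10.4 and 8.62, lay 2375 and 2075 bp before the gene end. By p, the peak with a fold of 10.4 (a listed p of 4.44e-22) was number 112 of the PC3 list.

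EP300 (chromosome 22, 41092592 to 41180077, plus strand) encodes the acetyltransferase p300. Its 3 PC3 peaks were spread over the gene. A 51 bp peak at 41117623 to 41117673 had a fold of 120.5 with a p of 5.65e-06. The other peaks, at 41149787 to 41152289 and 41169611 to 41173761, had folds of 9.95 and 7.61 with p-values of 6.04e-14 and 2.74e-13. The LNCaP list had no peak whole within the gene. It did hold a minus-strand peak of 13749 bp at 41169389 to 41183137, which runs past the gene end and lies on the strand opposite to EP300. This peak had the same bounds in PC3, and its fold was 11.2 in LNCaP with a p of 5.25e-09 and 3.50 in PC3 with a p of 4.05e-11. The PC3 peak at 41169611 to 41173761 lay whole within these bounds, on the other strand. A further minus-strand peak of the PC3 list, at 41174740 to 41197324 with a fold of 4.81, also ran past the gene end and met EP300-AS1, a gene annotated beyond it. Counting partly overlapping peaks of either strand, EP300 had 1 peak in LNCaP and 5 in PC3. On the strand of EP300 the LNCaP list held no peak, whole or partial. The place of EP300 in the PC3 list alone thus changes only where partly overlapping minus-strand peaks are counted.

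CREBBP (chromosome 16, 3725054 to 3880713, minus strand), the paralog of EP300, had 11 peaks in PC3 and 0 in LNCaP. Only 8 protein-coding genes had more PC3 peaks as listed. With stretches within 25 bp joined, CREBBP had 10 PC3 peaks. Of the 134 genes with a peak in the PC3 list alone, 2 had more, AHNAK with 20 and MUC5B with 12 (named after their values were seen). The 11 peaks covered 29156 bp, 18.7% of the 155660 bp gene span. The LNCaP list, whose largest p was 0.0178, had no CREBBP peak on either strand. Whether depth or filters have a part in this absence was not tested. How much CREBBP RNA each line holds is not known from the lists, so a difference in transcript level and a difference in recovery with METTL3 cannot be told apart.

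Folds on CREBBP were high and close to each other. They ran from 9.72 to 20.1 with a median of 14.7, and all 11 were above the PC3 list's median of 5.74. The smallest p, 1.61e-45, was on the 5447 bp peak at 3731354 to 3736800, whose fold was 16.7 and which was number 29 of 1033 by p. The largest fold was on the 9853 bp peak at 3758046 to 3767898 (a listed p of 3.36e-16). The peak at 3769187 to 3770953 had a fold of 15.8 (a listed p of 1.44e-22), and the peak with the smallest fold was the 76 bp one at 3810691 to 3810766, the first along the gene.

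Of the 11 CREBBP peaks, 7 had their midpoint in the last of 3 equal parts of the span. Over all PC3 peaks within 1 protein-coding gene of known strand, 56.7% did so. Past the middle of the span lay 10 of the 11 by midpoint. No share over all peaks is given for that division, so this count is not read as particular to CREBBP. A group of 5 ended between 2799 and 6300 bp before the gene end, with folds of 15.6, 13.9, 12.0, 14.7 and 16.7 in genomic order. From 3810766 to the gene start there was no peak, a distance of 69947 bp.

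**Figure D2:**
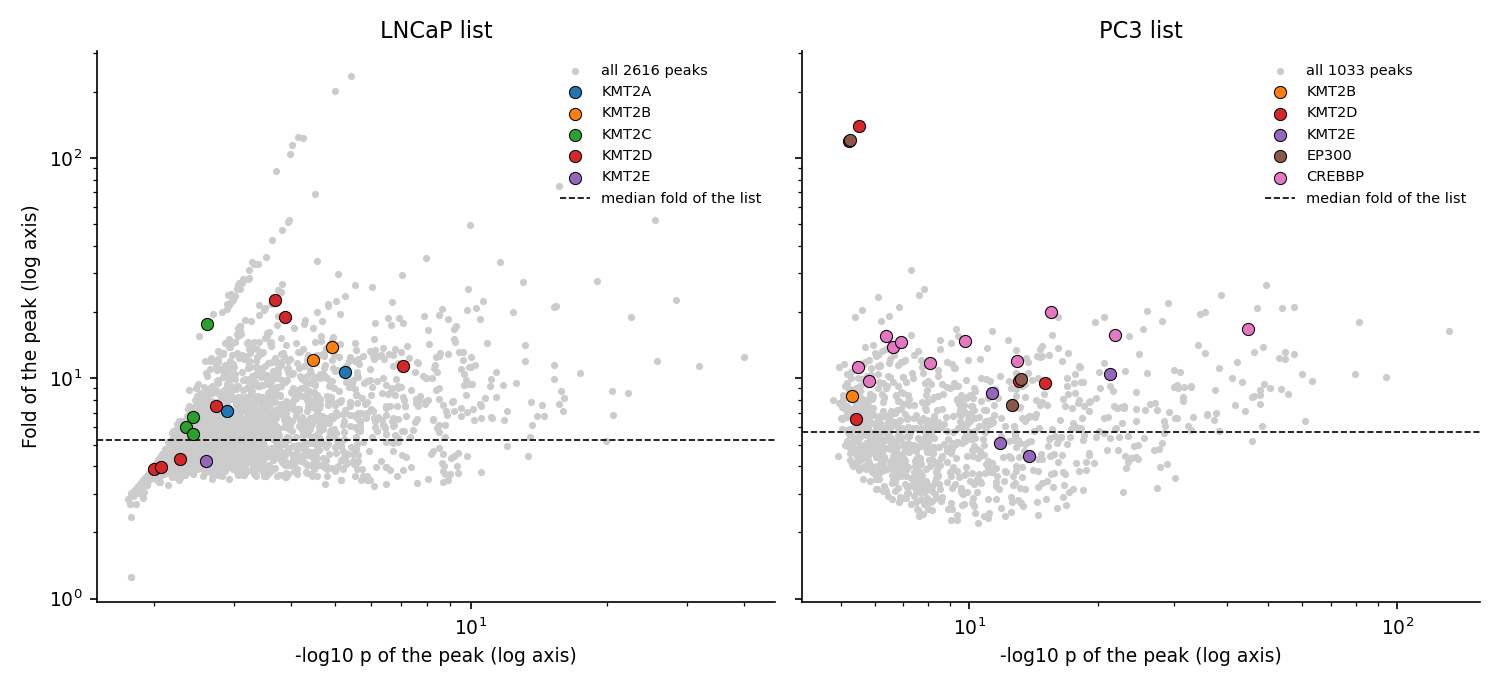
Fold (vertical, log axis) against the negative log10 of p (horizontal, log axis) for every peak of the LNCaP list (left) and the PC3 list (right), with peaks on the 7 genes coloured and the dashed line at the median fold of the list. In PC3 the 3 points above a fold of 100 are 2 KMT2D peaks and 1 EP300 peak at small negative log10 p, and the CREBBP peaks all lie above the median line.

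Over the genes together, the median fold was 7.32 in LNCaP (range 3.87 to 22.8, 16 peaks), beside 5.26 over that list, and 11.5 in PC3 (range 4.45 to 139.4, 24 peaks), beside 5.74. The folds were above the list's median for 12 of 16 and 22 of 24 peaks. The exceptions were 3 short KMT2D peaks and the KMT2E peak in LNCaP and 2 KMT2E peaks in PC3. Without CREBBP the PC3 median was 9.52 over 13 peaks. Folds were made separately for each list and were not tested against each other.

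The 3 largest folds of the whole PC3 list were on these genes, and no other PC3 peak reached 100. They were a KMT2D peak at 139.4, the EP300 peak at 120.5 and a KMT2D peak at 120.2, while the next fold of the list, on MYO9B, was 31.0. A fold of at least 100 was listed for 0.29% of PC3 peaks and 0.229% of LNCaP peaks. All 3 were short, at 126, 51 and 51 bp in order of fold. By p they were weak for this list, at numbers 957, 999 and 1005 of 1033 in the same order. Among the other 21 PC3 peaks on the 7 genes the highest fold was 20.1 and the median 10.4. The reads in IP and input behind these folds are not known, and their part in the result was not tested.

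With at least 1 shared bp on the same strand, 6 of 16 LNCaP peaks met a PC3 peak (37.5%, 95% Wilson interval 18.5 to 61.4%), beside 21.3% of all LNCaP peaks. In the other direction 5 of 24 PC3 peaks met a LNCaP peak (20.8%, interval 9.24 to 40.5%), beside 44.4% of all PC3 peaks. The intervals treat peaks as independent, although several come from the same gene, so they may be too narrow. They are a description and no test against the shares over all peaks. The 5 were 1 of 1 on KMT2B, 3 of 5 on KMT2D and 1 of 4 on KMT2E, while 14 of the 24 were on EP300 and CREBBP, neither of which held a whole LNCaP peak. Applying the largest PC3 p to both lists left 3 of the 16 LNCaP peaks, 1 each on KMT2A, KMT2B and KMT2D. Over the lists it left 14.9% of LNCaP peaks and, by construction, 100% of PC3 peaks. Then 2 of the 24 PC3 peaks (8.33%) met a remaining LNCaP peak, and the share over all PC3 peaks at this limit is not given.

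Position along the gene differed from gene to gene. The first, middle and last of 3 equal parts held 6, 4 and 6 LNCaP peaks and 3, 8 and 13 PC3 peaks. The last part thus held 37.5% of LNCaP peaks (Wilson interval 18.5 to 61.4%) and 54.2% of PC3 peaks (35.1 to 72.1%), beside 47% and 56.7% over all peaks within 1 protein-coding gene of known strand. Of the 13 PC3 peaks in the last part, 7 were on CREBBP and 4 on KMT2E. The first part held 19.5% and 14.9% over all such peaks. On the 7 genes it was reached in both lists on KMT2B and KMT2D, by LNCaP alone on KMT2C and by PC3 alone on EP300. Peaks of 1 gene come from 1 transcript population and are not replicates, so these intervals may also be too narrow and are no test.

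**Figure D3:**
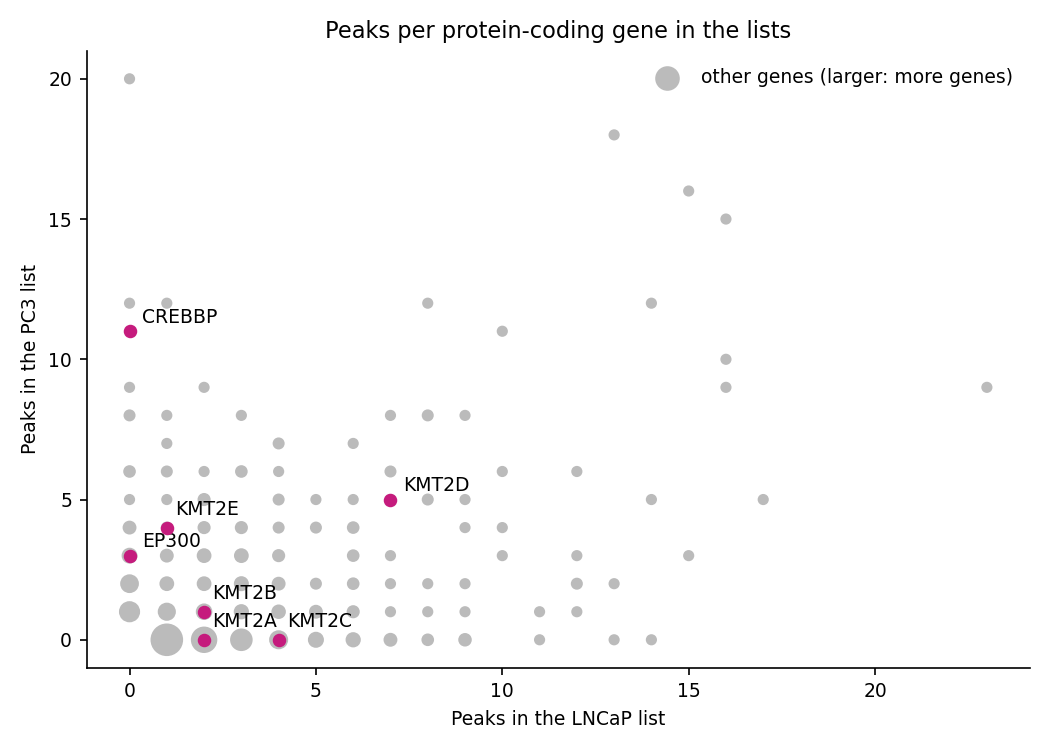
Number of peaks per protein-coding gene in the LNCaP list (horizontal) and the PC3 list (vertical), with grey circles for other genes, larger where more genes share a position, and the 7 genes in magenta. CREBBP stands at 0 and 11, EP300 at 0 and 3, KMT2D at 7 and 5, and KMT2C at 4 and 0.

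Genes with the most similar peak numbers were sought for the members present in both lists, by the summed difference in peak number over the 2 lists and then by the difference in log2 gene span. EIF4G1 had the same numbers as KMT2D, 7 in LNCaP and 5 in PC3, and was the only gene to do so. DSP with 7 and 6 and KIF1C with 8 and 5 followed. TLN1 and ASAP1 had the numbers of KMT2E, 1 and 4, and TOP1 had 1 and 3. The numbers of KMT2B, 2 and 1, were shared by 18 genes, of which PRKCSH, SRRT and TIMELESS were nearest in log2 span. With 2 lists this likeness rests on a pair of counts per gene.

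Related chromatin genes were read in 5 lists, chosen with earlier results of these data known. Over all 5, 14 of 53 genes had a peak in LNCaP and 10 of 53 in PC3, beside the 5.62% and 1.83% of all protein-coding genes, and 7 had one in both. Of the 15 subunits of KMT2 and SET1 complexes, 2 had a peak in each list. HCFC1, which encodes a host cell factor bound by these complexes, was in both, with 3 LNCaP peaks up to a fold of 6.49 and 8 PC3 peaks up to 9.69. BOD1L1 was in LNCaP alone and NCOA6, a subunit of the KMT2C and KMT2D complexes, in PC3 alone. The core subunit genes WDR5, ASH2L, RBBP5 and DPY30 and the menin gene MEN1 were in neither list.

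Among 11 other histone methyltransferase genes, 3 had a LNCaP peak and 2 a PC3 peak. NSD2, a histone H3 lysine 36 methyltransferase gene, was in both lists with 3 peaks in each, the highest with a fold of 5.39 for LNCaP and 4.29 for PC3. SETD2 and SETD1B were in LNCaP alone and SETD1A in PC3 alone. Of 5 H3K4 demethylase genes in the gene table, KDM5A was in LNCaP and none in PC3. Of 10 other acetyltransferase genes, 1 had a LNCaP peak and 2 a PC3 peak. KAT6A was in both, with 1 LNCaP peak of fold 6.52 and 3 PC3 peaks up to 9.23, and KAT6B in PC3 alone.

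Acetyl-lysine readers and deacetylase corepressors had the most members listed, 7 of 12 in LNCaP and 4 of 12 in PC3. BRD3, a reader of acetylated histones, had 3 LNCaP peaks with folds up to 13.9 and 2 PC3 peaks up to 5.65. The corepressor gene NCOR1 had 2 and 4 peaks, up to folds of 5.57 and 11.5. BRD2, BRD9 and BRWD1 were in LNCaP alone.

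**Figure D4:**
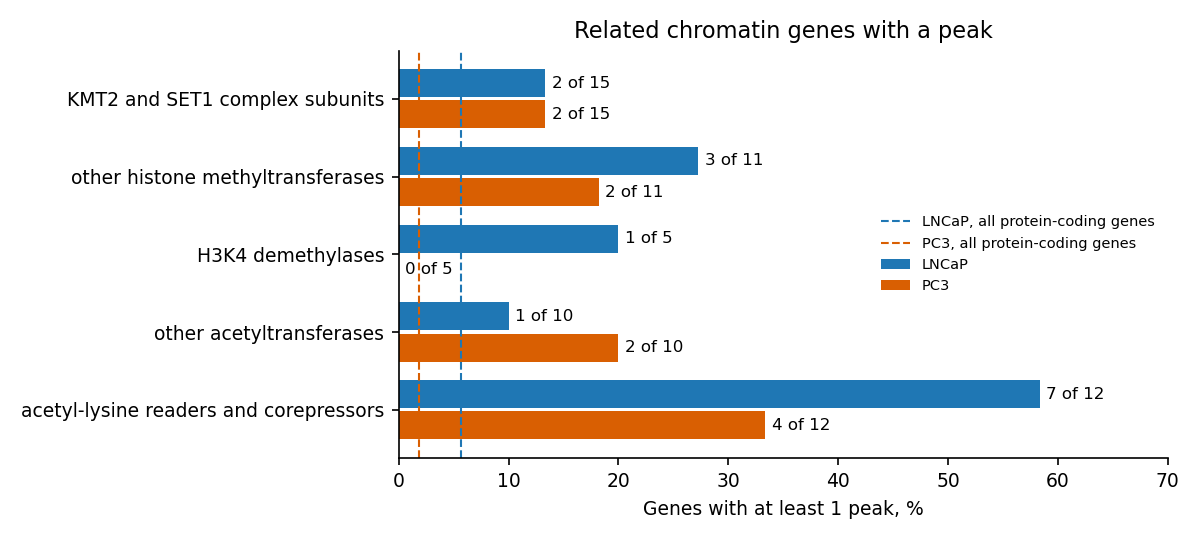
Share of genes with at least 1 peak (horizontal, percent) in 5 lists of related chromatin genes, for LNCaP (blue) and PC3 (orange), with the counts beside the bars and dashed lines at the share of all protein-coding genes in each list. The acetyl-lysine readers and corepressors have the longest bars, at 7 of 12 and 4 of 12.

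The identity of the lines could not be checked from expression. Of the luminal genes examined, FOLH1 and TMPRSS2 had 1 peak each in LNCaP and 0 in PC3, while KLK3, KLK2 and HOXB13 were in neither list. None of 4 basal or mesenchymal genes and none of 3 genes of blood, endothelial or stromal cells was in either list. A gene without a peak may still be expressed.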

How the data were processed

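METTL3 IP and input libraries of LNCaP and PC3 (8 samples, 2 replicates in each of 4 groups) are represented by 1 deposited peak list per line. The submitters' processing notes name fastp, STAR 2.5.3a, bedtools and deepTools and the build hg38. The peak caller, filters and handling of replicates are not given in the sources used here. Per the file headers, the authors list for each peak its length in bp, a linear fold enrichment (ratio), a p-value with its FDR, and a score. Computed here, the deposited FDR was the Benjamini-Hochberg value of the listed p alone, the score was minus log2 of that FDR, and the length was the genomic span, introns included.

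Peaks were matched to gene spans of RefSeq on GRCh38.p14 (pandas 2.3.3, numpy 2.4.6), counted where a peak lay whole within the gene, with gene strand from the RefSeq promoter table (known for 15813 of 19974 protein-coding genes on chromosomes 1 to 22 and X). The script was tested on simulated peaks. Members and gene lists were chosen with earlier results of these data known. All 7 members are named, related genes if listed in either line (some are not reported here), and the 3 nearest genes by peak number. No test across samples was possible.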

Additional observations from a re-analysis of the deposited data

How the results depend on the processing

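No paired analysis was possible because the lists hold no values per replicate, and for the same reason leaving out each replicate was not run. Of 66 alternative values, 56 stayed within 1.5 times a count or median, or within the Wilson interval of a share, and 10 moved. That interval treats peaks as independent and served as a fixed bound, not as a test. With both lists limited to the largest PC3 p, LNCaP had 3 peaks on 3 of the 7 genes with a median fold of 11.4. Of these 3 peaks alone, 0% lay in the last part and 66.7% met a PC3 peak. On the 7 genes, 8.33% of PC3 peaks met a LNCaP peak, and 5 related chromatin genes had a LNCaP peak. Fewer LNCaP peaks enter by construction, with 14.9% of that list left. Position and overlap over all peaks are not given at this limit. With 50% of both peaks shared, the overlap was 12.5% in LNCaP and 8.33% in PC3, and no share over all peaks is given for this setting. With 2 equal parts of the gene, which widens the last part, it held 75.0% of PC3 peaks, and no share over all peaks is given for 2 parts. A minimum fold of 4, joining of stretches within 25 bp, partly overlapping peaks, the strand of the gene, a span of at most 10000 bp and overlap without regard to strand moved none of the values recomputed under them past those bounds. Position and overlap were not recomputed with partly overlapping peaks, nor gene counts and median folds with joined stretches, nor related genes with joined stretches or gene strand. Depth is unknown, so what it limits cannot be said.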
